A study of Mus musculus with 18 samples.

Results

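Leukocyte adhesion molecules and integrins are the proteins by which blood leukocytes hold on to a vessel wall, cross it and lodge in tissue. The 10 genes described here were chosen by name, with no threshold on their measured values, out of 47729 genes counted by RNA-Seq in mouse colon. There are 5 genes for proteins of the vessel wall, *Icam1*, *Vcam1*, *Sele*, *Selp* and *Madcam1*, and 5 for the leukocyte partners of such proteins, *Itgb2*, *Itgal*, *Itgb7*, *Itgae* and *Selplg*. All 10 were found in the table. RNA was measured in the colon of 9 mice in 3 groups of 3. Naive WT mice (mice 1 to 3) were untreated controls. In WT CAC (mice 4 to 6), WT mice received the carcinogen azoxymethane (AOM) at 10 mg/kg, followed by DSS (dextran sulfate sodium, which injures the colon epithelium) at 2.5% in 3 cycles. The combination causes colitis-associated cancer, or CAC. The third group, *Cldn2*TG CAC (mice 7 to 9), carried a Claudin-2 transgene and had the same AOM-DSS treatment. The transgene is driven by the Villin promoter, which is active in intestinal epithelium and not in the vascular or leukocyte cells that these genes are best known from. All mice were on a C57BL/6 background. No untreated *Cldn2*TG mice are among the samples, so the transgene was compared between groups only under AOM-DSS.

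Leukocytes first roll along the endothelium. Rolling rests on E-selectin (*Sele*) and P-selectin (*Selp*), which bind sugars carried by the mucin PSGL-1 (*Selplg*) on the leukocyte. Firm arrest follows when activated integrins, each a pair of an alpha and a beta chain, bind members of the immunoglobulin superfamily on the endothelium. LFA-1, made of *Itgal* and *Itgb2*, binds ICAM-1 (*Icam1*), and the alpha 4 integrins bind VCAM-1 (*Vcam1*). In gut, the beta 7 chain (*Itgb7*) forms with alpha 4 the receptor for MAdCAM-1 (*Madcam1*), the addressin of mucosal venules. With alpha E (*Itgae*), beta 7 binds E-cadherin and holds lymphocytes within the epithelium. Inflamed endothelium is known to raise several of the vessel-wall proteins through NF-kB. ICAM-1 and VCAM-1 are also made outside the endothelium, by stromal cells, macrophages and, for ICAM-1, epithelium. In bulk tissue, fewer cells of a type and less RNA per cell cannot be told apart.

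The sequences in front of the transcription start of the vessel-wall genes are shown for their kappa B type motifs, the kind that NF-kB binds. RefSeq promoter windows (build GRCm38.p6) matched 5 of the 10 genes. They are *Icam1*, *Sele*, *Selp*, *Madcam1* and *Itgb7*. In GRCm38, the counted gene of *Icam1* spans chr9:21015960-21028797, *Vcam1* chr3:116109949-116129688, *Sele* chr1:164048234-164057677, *Selp* chr1:164115264-164150026 and *Madcam1* chr10:79664574-79668536. On the leukocyte side, *Itgb2* spans chr10:77530252-77565708, *Itgal* chr7:127296260-127335138, *Itgb7* chr15:102215995-102231935, *Itgae* chr11:73090583-73147446 and *Selplg* chr5:113818536-113832644. Windows for *Vcam1*, *Itgb2*, *Itgal*, *Itgae* and *Selplg* were not used here. The last 160 bases before the start are given in the direction of the gene, with motif matches in capitals, for *Icam1* (chr9:21015780-21015939, plus strand), *Sele* (chr1:164048074-164048233, plus strand), *Selp* (chr1:164115104-164115263, plus strand) and *Madcam1* (chr10:79664399-79664558, plus strand).
Icam1: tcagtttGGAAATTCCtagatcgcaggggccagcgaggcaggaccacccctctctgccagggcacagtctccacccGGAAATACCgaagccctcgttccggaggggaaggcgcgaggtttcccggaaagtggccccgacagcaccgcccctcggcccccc
Sele: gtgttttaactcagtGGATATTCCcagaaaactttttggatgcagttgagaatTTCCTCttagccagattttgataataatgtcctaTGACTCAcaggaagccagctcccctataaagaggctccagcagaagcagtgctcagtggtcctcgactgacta
Selp: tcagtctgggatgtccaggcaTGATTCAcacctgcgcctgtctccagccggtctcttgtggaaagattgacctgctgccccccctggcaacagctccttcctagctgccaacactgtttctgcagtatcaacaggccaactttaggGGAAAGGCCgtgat
Madcam1: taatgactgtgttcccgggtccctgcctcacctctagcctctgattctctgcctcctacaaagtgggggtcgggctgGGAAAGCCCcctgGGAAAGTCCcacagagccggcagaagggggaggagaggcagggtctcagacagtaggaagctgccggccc
The motifs searched on both strands in the 250 bases before the start were GGNNTTTCC and GGANNTTCC (kappa B type, bound by NF-kB), TGANTCA (AP-1), GAGGAA (PU.1 type) and TGTGGT (RUNX type). The first 2 patterns can match the same bases. All 4 vessel-wall genes with a window held at least 1 kappa B match. In *Icam1* the matches began 153 and 84 bases before the start, in *Madcam1* 83 and 70, in *Sele* 145 and in *Selp* 14. *Sele* and *Selp* each also held an AP-1 match, 73 and 139 bases before the start, and *Sele* a PU.1 type match at 107. The window of *Itgb7* held none of the 5 motifs. Over 32851 windows, GGNNTTTCC stood in 4.93%, GGANNTTCC in 3.59%, TGANTCA in 6.75%, GAGGAA in 23.3% and TGTGGT in 14.0%. A match describes letters and is not evidence of binding.

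Between 14142711 and 22262546 counts fell on genes in each mouse, summed over the 2 lanes of its library. The 2 lanes of a library differed by no more than sampling noise (chi-square per degree of freedom 0.995 to 1.057, where mice of a group gave 16.8 to 66.3), so each mouse was counted once. The labels do not say that the mice were bred or treated separately, and p-values measure the spread between these 9 mice. Levels are given in CPM, the counts of a gene relative to the TMM-scaled total of its library. *Cldn2* itself averaged 231.8 ± 35.6 CPM (SD, n = 3) in naive WT, 129.3 ± 9.34 in WT CAC and 225.7 ± 22.4 in *Cldn2*TG CAC. It was higher in *Cldn2*TG CAC than in WT CAC (log2 fold change 0.78, SE 0.12, adjusted p = 0.0103 by edgeR's quasi-likelihood test), at a level that lay within the range of the naive mice. Naive WT mouse 1 stood apart in sex-linked RNA, with *Xist* at 214.4 CPM against at most 0.203 in the other 8 mice and 4 Y-linked genes summing to 0.498 CPM against at least 146.1, so the counts of members and of other adhesion genes called against naive WT are also given without it, and marker counts where they differed. Colon epithelial markers (*Epcam*, *Vil1*, *Cdx2* and 5 others) summed to 16390 to 21930 CPM in every mouse, as the tissue label says.

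Per length, *Icam1* was the most abundant of the 10 genes in WT CAC, at 10.8 ± 6.23 CPM per kb of exon (SD, n = 3). *Itgb2* followed at 3.58 ± 1.53 CPM per kb and *Itgb7* at 2.99 ± 0.661, which lay within each other's spread. *Selplg* (1.89 ± 0.826 CPM per kb), *Madcam1* (1.75 ± 0.199), *Itgae* (1.09 ± 0.288), *Vcam1* (1.07 ± 0.177) and *Itgal* (0.989 ± 0.457) came next. Of the neighbours in this order from *Icam1* to *Itgal*, only *Madcam1* and *Itgae* differed by more than the sum of their SDs. *Selp* (0.315 ± 0.207 CPM per kb) and *Sele* (0.0599 ± 0.0220) were far below. *Icam1* also stood first in naive WT, at 1.56 ± 0.516 CPM per kb, and in *Cldn2*TG CAC, at 1.70 ± 0.410.

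**Figure D1:**
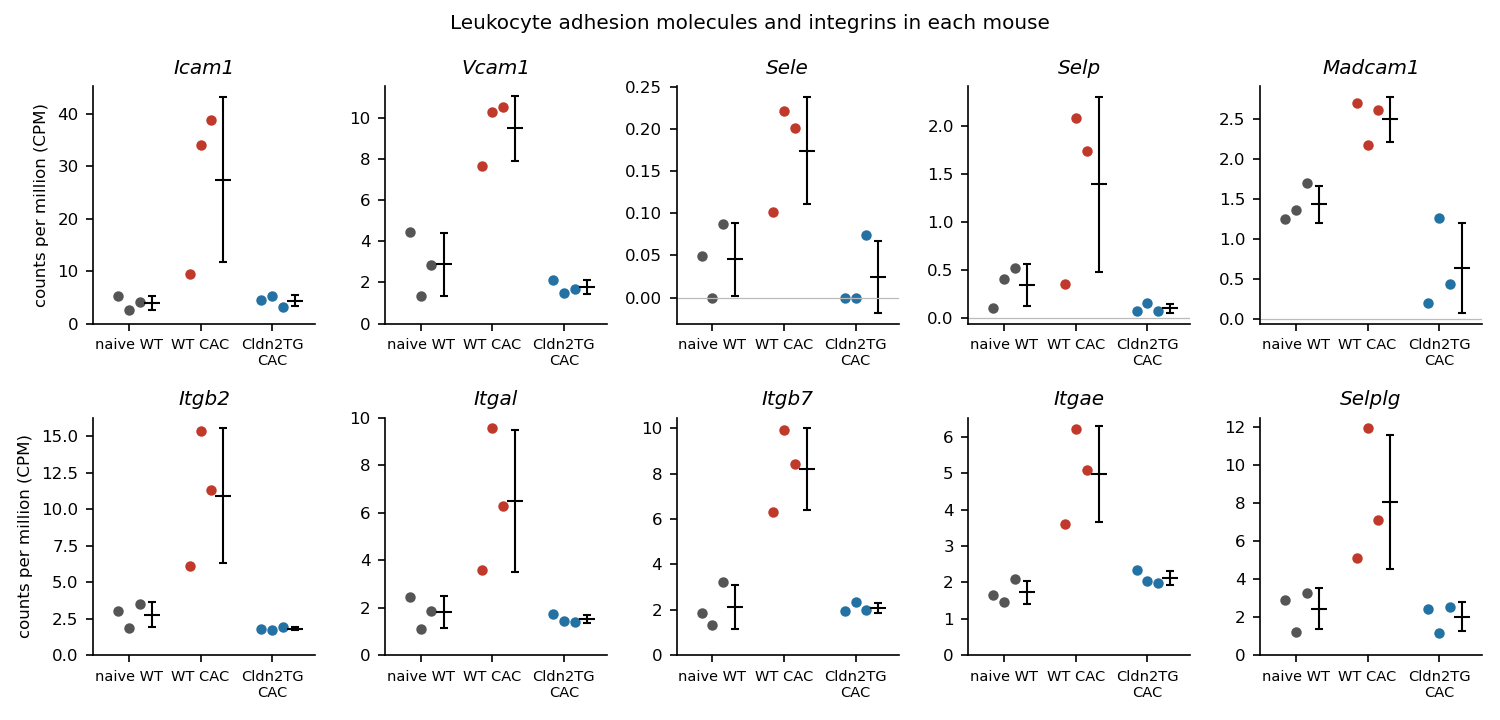
CPM (vertical axis, linear) of each of the 10 genes in the 9 mice, with points in mouse order within a group and the bar giving mean ± SD (n = 3). In WT CAC, *Icam1* spans 9.40 to 38.8 CPM while the naive WT and *Cldn2*TG CAC mice all stay at or below 5.23 CPM.

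AOM-DSS treatment of WT mice was compared with naive WT to ask how the disease model changes these genes. Genes of both sides of the adhesion pair rose: *Icam1* and *Vcam1* on the vessel side, and *Itgb2*, *Itgal*, *Itgb7*, *Itgae* and *Selplg* on the leukocyte side. Fitted increases ran from 2.92-fold for *Itgae* to 7.01-fold for *Icam1*. Of the 9 genes with enough counts to test, 7 were called higher (adjusted p under 0.05 over 15437 genes) and none lower, where 8.04% of all genes tested were called higher and 6.92% lower. The median log2 fold change of the 9 was 1.87 against 0.02 for all genes. These 7 had at least 10 counts in every mouse, so none was tested through its higher group alone. In 8 of the 9 the groups did not overlap, as against 17.7% of all genes not overlapping in this direction; with 3 mice against 3 the exact permutation test cannot go below p = 0.1, the value each of these 8 reached.

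*Icam1*, the ligand of LFA-1, was at 5.23, 2.61 and 4.08 CPM in naive WT mice 1 to 3 and at 9.40, 34.1 and 38.8 CPM in WT CAC mice 4 to 6. WT CAC mouse 4 lay nearer to the naive mice than to the other mice of its own group, though above all of them. The log2 fold change was 2.81 (SE 0.55, adjusted p = 0.0223 by edgeR's quasi-likelihood test). *Vcam1*, the ligand of alpha 4 integrins, was at 4.43, 1.36 and 2.82 CPM in naive WT and at 7.67, 10.3 and 10.5 CPM in WT CAC. Its WT CAC mice were close together and its naive mice were not. The log2 fold change of *Vcam1* was 1.75 (SE 0.39, adjusted p = 0.0277 by edgeR's quasi-likelihood test).

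The selectins were scarce. *Selp* had 2, 8 and 12 counts in naive WT mice and 7, 47 and 26 in WT CAC mice, so that the groups overlapped through WT CAC mouse 4. Its log2 fold change of 2.02 (SE 0.73) missed the threshold (adjusted p = 0.0986 by edgeR's quasi-likelihood test), with adjusted p between 0.0117 and 0.245 over all alternatives; without WT CAC mouse 4 *Selp* was called, at a log2 fold change of 2.47 and adjusted p = 0.0117. *Sele* had 1, 0 and 2 counts in naive WT and 2, 5 and 3 in WT CAC, too few for the test, and a count of 0 allows up to 3. *Madcam1*, the mucosal addressin, was at 1.24, 1.36 and 1.69 CPM in naive WT and at 2.69, 2.17 and 2.61 CPM in WT CAC. All 3 treated mice were above all 3 naive mice, yet the log2 fold change of 0.82 (SE 0.28) was the smallest of the tested members and missed the threshold (adjusted p = 0.0819 by edgeR's quasi-likelihood test). Adjusted p of *Madcam1* stayed between 0.0608 and 0.226 over all alternatives.

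On the leukocyte side, *Itgb2*, the beta chain of LFA-1 and of the myeloid integrins, was at 2.99, 1.86 and 3.47 CPM in naive WT and at 6.10, 15.4 and 11.3 CPM in WT CAC (log2 fold change 2.0, SE 0.38, adjusted p = 0.0185 by edgeR). *Itgal*, its alpha partner in LFA-1, was at 2.44, 1.11 and 1.87 CPM and then at 3.61, 9.60 and 6.29 CPM (1.87, SE 0.43, adjusted p = 0.0281 by edgeR). Both chains had the same order of mice in WT CAC, mouse 5 highest and mouse 4 lowest. *Itgb7* was at 1.84, 1.31 and 3.21 CPM in naive WT and at 6.30, 9.91 and 8.44 CPM in WT CAC (1.97, SE 0.36, adjusted p = 0.0162 by edgeR). *Itgae* was at 1.64, 1.46 and 2.09 CPM and then at 3.61, 6.24 and 5.09 CPM (1.55, SE 0.30, adjusted p = 0.0185 by edgeR). *Selplg*, the selectin ligand, was at 2.89, 1.21 and 3.26 CPM and then at 5.13, 12.0 and 7.10 CPM (1.74, SE 0.44, adjusted p = 0.0369 by edgeR). In all 5 genes the lowest treated mouse was above the highest naive mouse.

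The number of calls depended on which mice were in the fit. Without naive WT mouse 1, 1 of the 7 remained called (*Vcam1*), and 3.96% of all genes tested were called. With all mice, 2310 of 15437 genes were called. Without naive WT mouse 2 no member was called (0.847% of all genes), and without naive WT mouse 3 only *Itgb7* (2.55%). Leaving out WT CAC mouse 5 left 4 called (7.90% of all genes) and WT CAC mouse 6 left 3 (6.72%), while without WT CAC mouse 4 there were 8, the additional gene being *Selp*, and 25.7% of all genes were called. No fold change of a tested member changed sign in any of these fits. Call by call, *Icam1* was lost with no filter on low counts (adjusted p = 0.0853), *Itgal* in lane 2 alone (adjusted p = 0.0648) and *Selplg* in lane 1 alone (adjusted p = 0.0716), all by edgeR.

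The transgene was compared under the same treatment by setting *Cldn2*TG CAC against WT CAC, which shares its WT CAC mice with the comparison above. All 8 genes with enough counts to test were lower in every *Cldn2*TG CAC mouse than in every WT CAC mouse. Fitted decreases of the called genes ran from 2.38-fold for *Itgae* to 6.40-fold for *Icam1*. Of the 8 genes tested, 7 were called lower (adjusted p under 0.05 over 14888 genes) and none higher, where 7.35% of all genes tested were called lower and 2.19% higher, and groups did not overlap in the lower direction in 14.3% of all genes. The median log2 fold change of the 8 was -2.07 against 0.01 for all genes. The 7 called genes again had at least 10 counts in every mouse. The eighth, *Madcam1*, did not, and passed the filter through WT CAC, where it is high.

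*Icam1* was at 4.55, 5.22 and 3.18 CPM in *Cldn2*TG CAC mice 7 to 9, against 9.40 CPM in the lowest WT CAC mouse. The log2 fold change was -2.68 (SE 0.52, adjusted p = 0.0245 by edgeR's quasi-likelihood test). *Vcam1* was at 2.14, 1.47 and 1.70 CPM, all below the lowest WT CAC mouse at 7.67 CPM. With a log2 fold change of -2.45 (SE 0.26, adjusted p = 0.00426 by edgeR's quasi-likelihood test), *Vcam1* had the lowest adjusted p of the 8 tested. It was the only member called in each of the 6 fits without 1 mouse, with log2 fold changes of -2.59 to -2.31 and adjusted p of 0.000206 to 0.0431, and in each of the other 9 settings.

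*Selp* had 1, 3 and 1 counts in *Cldn2*TG CAC, against 7, 47 and 26 in WT CAC. Summed over mice these were 5 counts against 80, a rate 13.4 times higher in WT CAC (95% exact interval 5.49 to 42.3, which covers counting error only and not the spread between mice). *Selp* was too low for the reported test. Of the other settings, 2 tested it, and both called it lower (log2 fold change -3.66 with no filter and -3.68 with all 9 mice in 1 fit, adjusted p = 0.00255 and 0.0151 by edgeR). With 1 mouse left out it was tested 4 times and called once, without WT CAC mouse 4 (adjusted p = 0.000571 by edgeR), with adjusted p of 0.0931 to 0.113 in the other 3 fits. In those 4 fits it passed the filter on low counts through WT CAC, the group in which it was high. *Sele* had 0, 0 and 1 counts against 2, 5 and 3, too few to read. *Madcam1* was at 0.207, 1.27 and 0.443 CPM (3, 25 and 6 counts, against 39 to 53 in WT CAC), with mouse 8 well above the other mice of *Cldn2*TG CAC. A log2 fold change of -1.91 (SE 0.53) missed the threshold (adjusted p = 0.0582 by edgeR's quasi-likelihood test). In 6 of 8 other settings *Madcam1* was called (adjusted p 0.0122 to 0.288 over the 8), and the setting with at least 10 counts in each mouse left it out. None of the 6 fits without 1 mouse called *Madcam1* (adjusted p 0.0511 to 0.2), and without *Cldn2*TG CAC mouse 8 the log2 fold change was -2.93.

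*Itgb2* was at 1.79, 1.72 and 1.92 CPM in *Cldn2*TG CAC, with a log2 fold change of -2.61 (SE 0.35, adjusted p = 0.00777 by edgeR). *Itgal* was at 1.72, 1.42 and 1.40 CPM (-2.12, SE 0.38, adjusted p = 0.0141 by edgeR). *Itgb7* was at 1.93, 2.33 and 2.0 CPM (-1.99, SE 0.26, adjusted p = 0.00777 by edgeR). The integrin chains were tight within *Cldn2*TG CAC, with SDs of at most 0.216 CPM, that of *Itgb7*. *Selplg* was at 2.41, 1.17 and 2.51 CPM (-2.03, SE 0.41, adjusted p = 0.0198 by edgeR). *Itgae* fell least, to 2.34, 2.03 and 2.0 CPM (-1.25, SE 0.29, adjusted p = 0.0313 by edgeR), and was not called in lane 2 alone, where the log2 fold change was -1.0 and the adjusted p 0.193. *Icam1* was not called with no filter on low counts (adjusted p = 0.112 by edgeR).

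**Figure D2:**
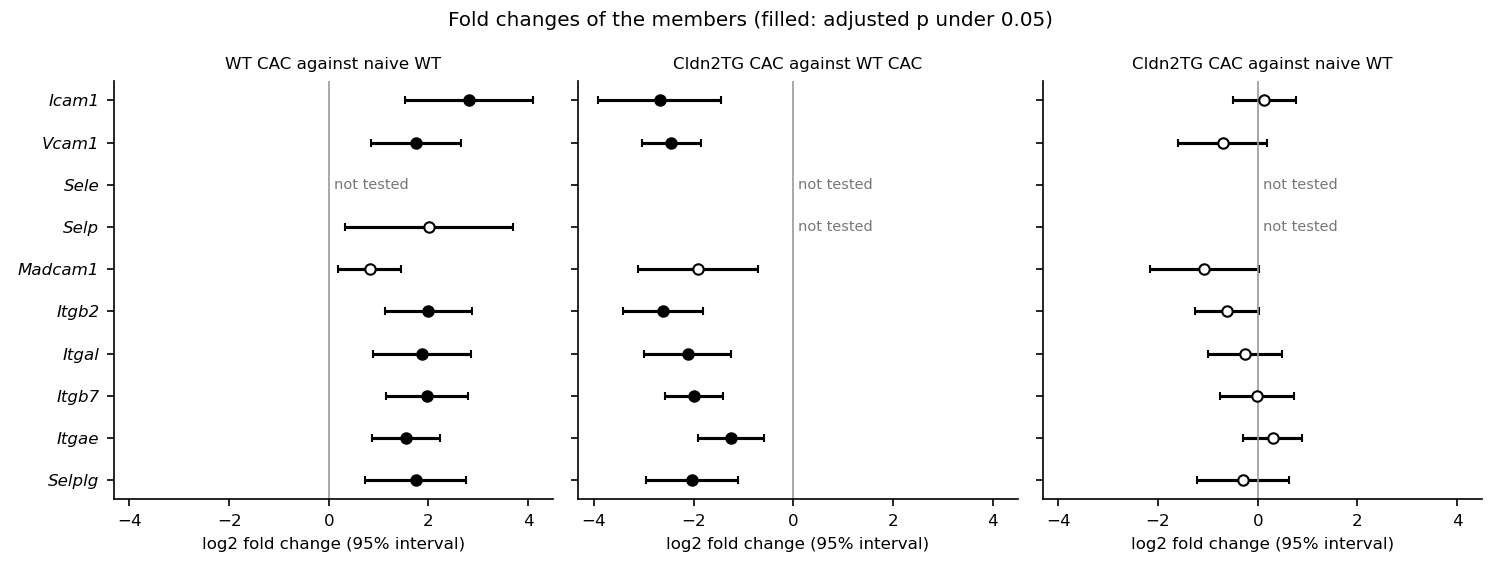
Log2 fold changes (horizontal axis) with 95% intervals (SE times the t quantile of edgeR's quasi-likelihood test) for each gene in the 3 comparisons, filled where the adjusted p was under 0.05. The 7 filled points lie right of 0 in WT CAC against naive WT and left of 0 for *Cldn2*TG CAC against WT CAC. The panel of *Cldn2*TG CAC against naive WT has no filled point.

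Leaving out 1 *Cldn2*TG CAC mouse cost most of these calls. Without mouse 8 or without mouse 9 only *Vcam1* was called (0.382% and 0.686% of all genes were called in those fits, against 9.55% with all mice), and without mouse 7 *Vcam1*, *Itgb2* and *Itgb7* (2.92%). Without WT CAC mouse 5 there were 4 calls (3.70% of all genes), without WT CAC mouse 6 there were 5 (5.19%) and without WT CAC mouse 4 there were 8 (19.2%). Directions did not change in any of them.

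**Figure D3:**
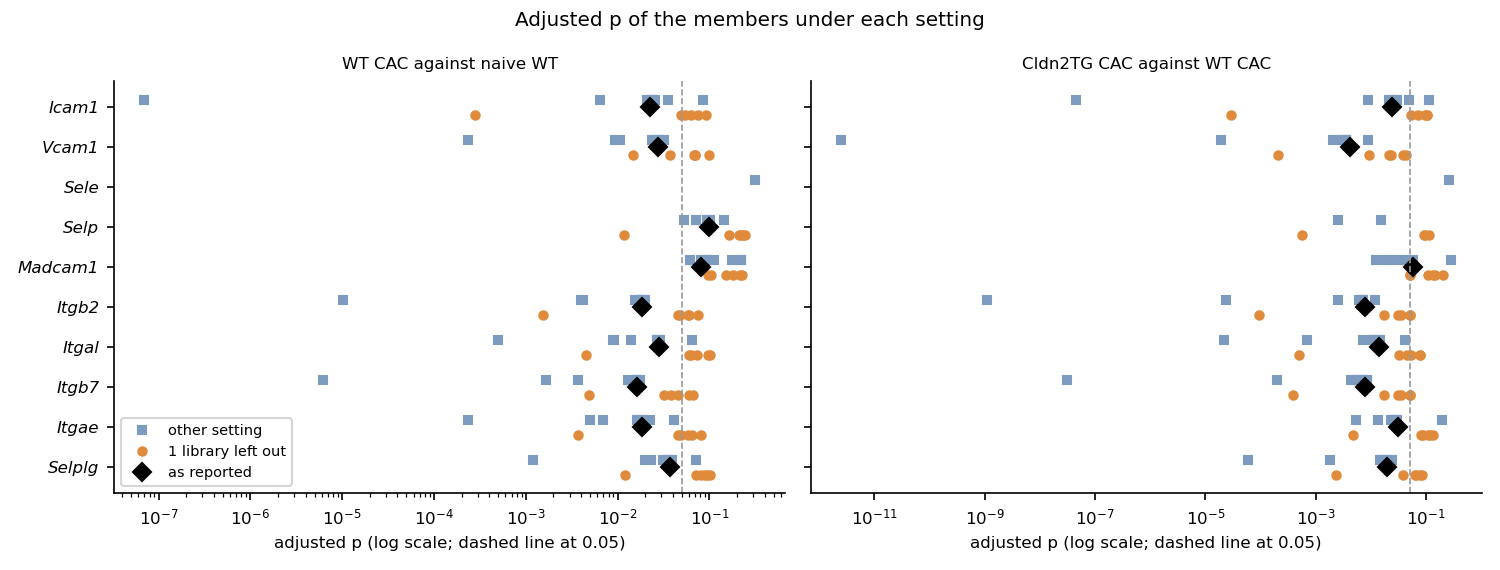
Adjusted p (horizontal axis, log scale) of each gene as reported, in fits with 1 library left out and in the other settings, for the 2 comparisons that involve WT CAC. In *Cldn2*TG CAC against WT CAC, all points of *Vcam1* lie left of the dashed line at 0.05, the highest at 0.0431.

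*Cldn2*TG CAC was also set against naive WT, to see where the treated transgenic mice stood relative to untreated mice. All 8 genes tested overlapped between these groups. Of the 8, 0 were called by edgeR or DESeq2 and 0 had an unadjusted p under 0.05, where 3.92% of all genes were called higher and 6.07% lower, and 14.9% and 16.3% did not overlap in those directions. The median log2 fold change of the 8 was -0.27 against 0.0 for all genes. Missing the threshold does not show that the groups were alike. For *Icam1* the log2 fold change of 0.13 had a 95% interval of -0.50 to 0.77, and for *Itgb7* that of -0.02 had one of -0.76 to 0.72. For *Itgb2* (-0.61, interval -1.25 to 0.02), *Vcam1* (-0.70, interval -1.59 to 0.19; -0.24 without naive WT mouse 1) and *Madcam1* (-1.07, interval -2.16 to 0.03) the intervals lay mostly below 0 and included it. Leaving out *Cldn2*TG CAC mouse 8 gave a call for *Madcam1* (log2 fold change -2.13, adjusted p = 0.0453 by edgeR), in a fit that called 4.0% of all genes. *Selp* had 5 counts in *Cldn2*TG CAC against 22 in naive WT, a rate 3.34 times higher in naive WT (95% exact interval 1.23 to 11.3, counting error only). It was too low for the reported test, and the 2 other settings that tested it did not call it (log2 fold change -1.67 in each, adjusted p = 0.196 with no filter and 0.356 with all 9 mice in 1 fit by edgeR). Without naive WT mouse 1, 0 of the 8 were called (6.25% of all genes).

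In WT CAC and naive WT, some mice were low or high for most of the genes. WT CAC mouse 4 had the lowest level of its group for 9 of the 10 genes and the highest for *Madcam1*, mouse 5 had the highest for 7, and naive WT mouse 2 had the lowest for 8. No such order was seen in *Cldn2*TG CAC, where each mouse was lowest for 3 or 4 genes and highest for 3 or 4. WT CAC mouse 4 and naive WT mouse 2 also had the lowest leukocyte marker sums of their groups. The 10 markers of all leukocytes (*Ptprc*, *Cd53*, *Coro1a* and 7 others) summed to 211.1 CPM in the lowest WT CAC mouse and 279.7 in the highest, against 59.5 to 121.3 in naive WT and 49.1 to 79.4 in *Cldn2*TG CAC.

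Several marker lists of cells that carry these proteins moved with them. Of 10 all-leukocyte markers, WT CAC had 9 called higher than naive WT, and *Cldn2*TG CAC had 9 called lower than WT CAC. Set against naive WT, *Cldn2*TG CAC had 1 of 9 tested called lower (0 of 9 without naive WT mouse 1). T cell markers were higher for 6 of 8 and then lower for 6 of 8, and monocyte and macrophage markers higher for 7 of 10 and then lower for 8 of 10. Of 8 markers of cytotoxic and intraepithelial lymphocytes, the cells that *Itgae* holds in the epithelium, 3 were called higher in WT CAC than in naive WT (0 without naive WT mouse 1) and 3 lower in *Cldn2*TG CAC than in WT CAC, with sums of 3.11 to 10.9 CPM in naive WT, 11.5 to 36.3 in WT CAC and 4.82 to 9.90 in *Cldn2*TG CAC. Of 4 plasma cell markers, 2 of 3 tested were called higher in WT CAC than in naive WT and 3 of 3 lower in *Cldn2*TG CAC than in WT CAC, with sums of 38.5 to 92.2 CPM in naive WT, 194.8 to 440.9 in WT CAC and 23.9 to 100.2 in *Cldn2*TG CAC. B cell markers had 0 of 8 called higher in WT CAC than in naive WT (7 of 8 without naive WT mouse 1), with sums of 4.42 to 39.9 and 30.7 to 60.7 CPM that overlapped, and 1 of 8 called lower in *Cldn2*TG CAC (3.18 to 23.4 CPM). Neutrophil markers summed to 137.4 to 207.6 CPM in naive WT, 299.9 to 378.5 in WT CAC and 302.4 to 350.7 in *Cldn2*TG CAC, so the CAC groups overlapped. Of 8 neutrophil markers, 4 of 4 tested were called higher in WT CAC than in naive WT, 2 of 3 lower in *Cldn2*TG CAC than in WT CAC, and 1 of 1 higher in *Cldn2*TG CAC than in naive WT. *Ly6g*, named after its values were seen, made up most of that sum in every mouse (136.6 to 350.2 CPM). The other 7 neutrophil markers summed to 0.0502 to 0.825 CPM in naive WT, to 2.03, 51.7 and 28.2 CPM in WT CAC mice 4 to 6 and to 0.222 to 0.507 CPM in *Cldn2*TG CAC, with *Ngp* at 3 counts or fewer throughout. Without naive WT mouse 1, WT CAC had 8 of 10 all-leukocyte, 1 of 8 T cell, 1 of 10 monocyte and macrophage, 1 of 4 plasma cell and 1 of 6 tested neutrophil markers called higher than naive WT.

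The 12 endothelial markers (*Pecam1*, *Cdh5*, *Kdr* and 9 others) summed to 74.3 to 87.3 CPM in naive WT and 75.8 to 107.1 CPM in WT CAC, with 1 of 12 called higher (0 of 12 without naive WT mouse 1), and to 32.3 to 39.5 CPM in *Cldn2*TG CAC, with 8 of 12 called lower than in WT CAC and 9 of 12 lower than in naive WT (8 of 12 without naive WT mouse 1). The 4 lymphatic endothelial markers summed to 18.4 to 26.7 CPM in naive WT, 27.9 to 86.0 in WT CAC and 12.7 to 24.4 in *Cldn2*TG CAC, so WT CAC was above both other groups without overlap, with 1 of 4 called higher and then 1 of 4 lower. The 3 markers of lymphoid tissue stroma also lay higher in WT CAC (9.24 to 12.4 CPM) than in naive WT (1.25 to 8.31) and *Cldn2*TG CAC (2.22 to 3.65) without overlap, with 0 of 2 tested called higher (2 of 2 without naive WT mouse 1) and then 2 of 2 lower. No marker of the all-leukocyte, T cell, monocyte and macrophage and endothelial lists was at 3 counts or fewer in all 9 mice. Single groups were not checked in this way. Fibroblast markers, another source of *Vcam1*, summed to 291.8 to 422.2 CPM in naive WT, 445.9 to 1119 in WT CAC and 181.4 to 260.4 in *Cldn2*TG CAC, with 0 of 6 called higher and then 2 of 6 lower. Platelets store P-selectin. Of 4 platelet markers *Gp9* was at 3 counts or fewer throughout, and the sum of the 4 was 4.32 to 4.88 CPM in naive WT, 9.91 to 19.4 in WT CAC and 4.36 to 5.32 in *Cldn2*TG CAC. Of the 2 platelet markers tested, 2 were called higher in WT CAC than in naive WT (1 of 3 without naive WT mouse 1). Both were called lower in *Cldn2*TG CAC than in WT CAC. Of 6 dendritic cell markers, 2 of 3 tested were called higher in WT CAC than in naive WT (1 of 3 without naive WT mouse 1) and 1 of 2 lower in *Cldn2*TG CAC than in WT CAC. Smooth muscle markers had 0 of 6 called between WT CAC and either other group. Against naive WT, *Cldn2*TG CAC had 2 of 6 called lower (also without naive WT mouse 1). Their sums were 939.4 to 1452 CPM in *Cldn2*TG CAC and 1954 to 3966 CPM in naive WT. There, 1 of 6 fibroblast (0 of 6 without naive WT mouse 1) and 1 of 10 monocyte and macrophage markers were also called lower. The sums of both lists lay below those of naive WT without overlap. None of the 8 epithelial markers was called between WT CAC and either other group. In *Cldn2*TG CAC, 1 of 8 was called higher than in naive WT (0 of 8 without naive WT mouse 1). The part of these cell types in the results was not tested.

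**Figure D4:**
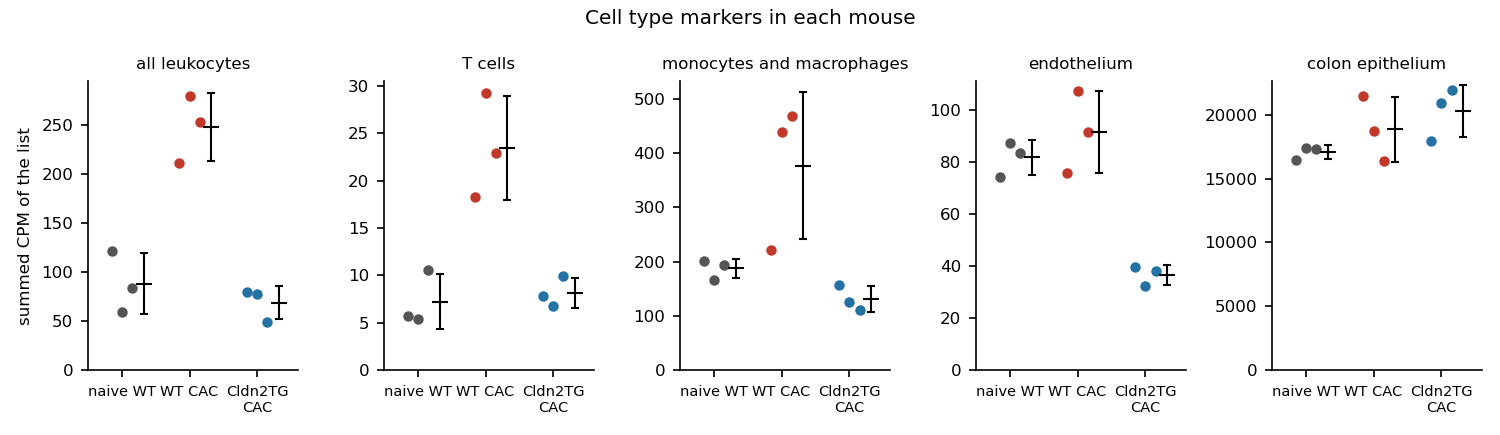
Summed CPM (vertical axes start at 0) of 5 marker lists in each mouse, with mean ± SD (n = 3). Leukocyte markers are highest in WT CAC, and endothelial markers are 32.3 to 39.5 CPM in *Cldn2*TG CAC against 74.3 CPM or more in the other mice.

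Each gene was therefore also expressed relative to its marker list, as log2(CPM + 0.1) minus the mean of the same over the markers in that mouse, with endothelial markers for the vessel-wall genes and all-leukocyte markers for the leukocyte genes. *Selp* and *Sele*, below 1 CPM on average, were left out because the added 0.1 would set their values. Over 8 genes and 3 comparisons, 24 differences were computed, and with 3 mice against 3 the smallest exact permutation p is 0.1, so none can pass 0.05. Relative to leukocyte markers, *Itgb2*, *Itgal*, *Itgb7* and *Selplg* overlapped between groups in all 3 comparisons, with differences of -0.47 to 0.39 on the log2 scale (-0.46 to 0.07 against naive WT without naive WT mouse 1). The value for *Itgae* depended on the list. It was 0.80 higher relative to leukocyte markers in *Cldn2*TG CAC (-1.23, -1.44 and -0.62) than in WT CAC (-2.15, -1.71 and -1.83), without overlap (two-sided exact permutation p = 0.1). Relative *Itgae* overlapped between WT CAC and naive WT (-2.40, -1.36 and -1.38), at a difference of -0.19, but without naive WT mouse 1 it was lower in WT CAC by a log2 difference of -0.53, without overlap. Set against the markers of cytotoxic and intraepithelial lymphocytes, a list tried after seeing the data, *Itgae* overlapped in all 3 comparisons, and its difference between *Cldn2*TG CAC (1.82, 1.31 and 0.82) and WT CAC (1.38, 0.84 and 0.61) was 0.37 (two-sided exact permutation p = 0.5). Against T cell markers, tried in the same way, that difference was 0.56, without overlap (two-sided exact permutation p = 0.1).

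Relative to endothelial markers, *Icam1* and *Vcam1* remained higher in WT CAC than in naive WT, by 2.41 and 1.67 on the log2 scale (2.72 and 2.13 without naive WT mouse 1) and without overlap (two-sided exact permutation p = 0.1 each). *Vcam1* then stood 1.0 lower in *Cldn2*TG CAC (-0.23, -0.39 and -0.57) than in WT CAC (0.65, 0.40 and 0.75), again without overlap (two-sided exact permutation p = 0.1). *Icam1* was 1.07 lower in *Cldn2*TG CAC than in WT CAC but overlapped (two-sided exact permutation p = 0.2). Against naive WT, relative *Icam1* was 1.35 higher in *Cldn2*TG CAC (1.65 without naive WT mouse 1), at 0.83, 1.37 and 0.29 against 0.09, -1.16 and -0.48, without overlap (two-sided exact permutation p = 0.1), while its plain level overlapped. Relative *Vcam1* was 0.67 higher in *Cldn2*TG CAC than in naive WT (-0.15, -2.05 and -0.99) and overlapped, but without naive WT mouse 1 it was 1.13 higher, without overlap. *Madcam1* overlapped in all 3 comparisons. *Icam1* and *Vcam1* are not made by endothelium alone, so these values are relative to a marker list and not per cell.

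**Figure D5:**
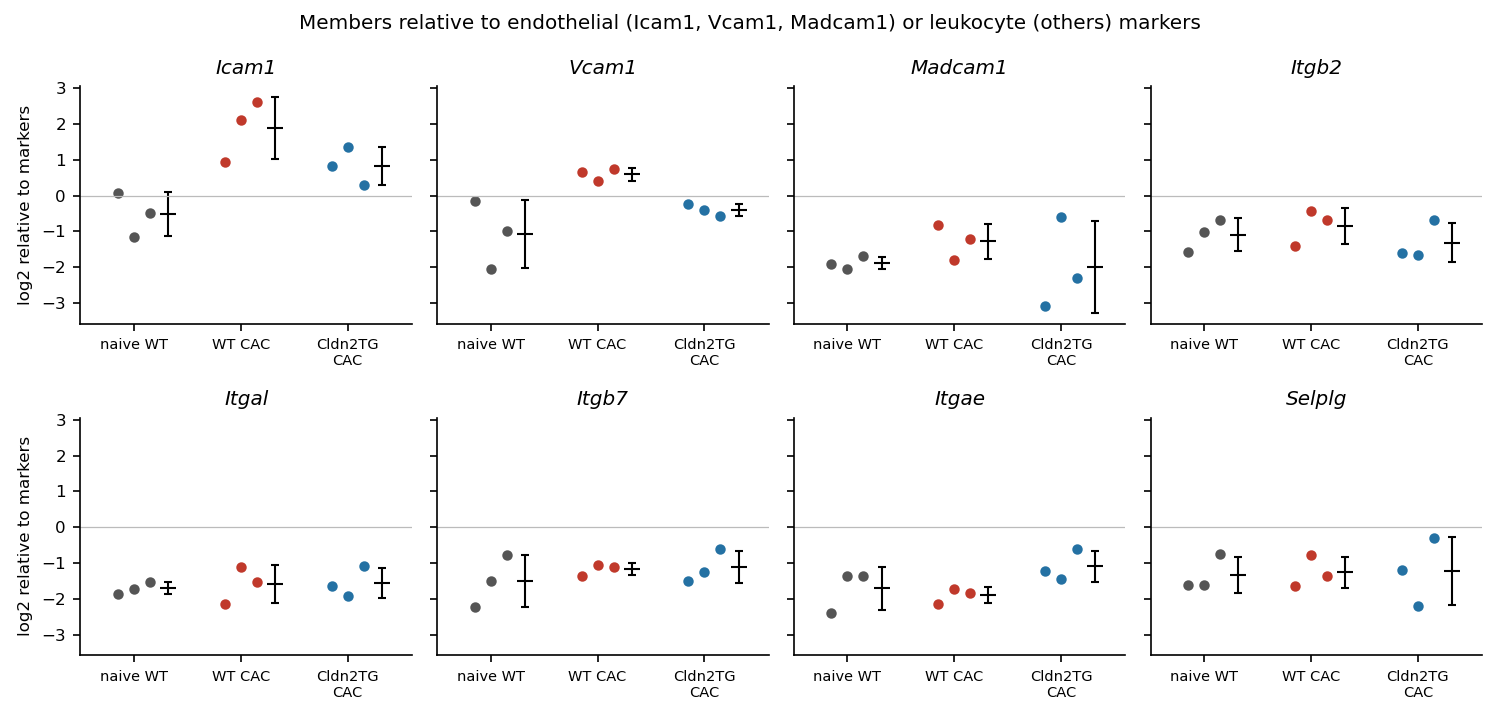
Level of 8 genes relative to endothelial markers (*Icam1*, *Vcam1*, *Madcam1*) or leukocyte markers (the other 5) in each mouse, on a log2 scale (vertical axis), with mean ± SD (n = 3). *Vcam1* is above 0 in the 3 WT CAC mice and below 0 in all others, and *Itgb2*, *Itgal*, *Itgb7* and *Selplg* overlap between all groups.

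Subunits that pair were compared per length in each mouse. The ratio of *Itgb2* to *Itgal* had a median of 3.62 in naive WT (2.64 to 4.0), 3.64 in WT CAC (3.45 to 3.87) and 2.61 in *Cldn2*TG CAC (2.24 to 2.95), and the 2 CAC groups did not overlap. *Itgb2* pairs with several alpha chains besides *Itgal*. The ratio of *Itgb7* to *Itgae* had a median of 1.87 in naive WT (1.5 to 2.58), 2.77 in WT CAC (2.65 to 2.92) and 1.67 in *Cldn2*TG CAC (1.38 to 1.92), so that all 3 WT CAC mice were above all others. The other partner of *Itgb7*, *Itga4*, averaged 2.38 ± 1.0 CPM in naive WT, 3.65 ± 1.09 in WT CAC and 1.81 ± 0.220 in *Cldn2*TG CAC (SD, n = 3), and was not called in any comparison (adjusted p = 0.288, 0.0747 and 0.505 by edgeR, in the order of the comparisons above). These ratios were not tested.

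Genes with the nearest profiles were found over the 9 mice by the root mean square difference of log2(CPM + 0.1), each gene centred on its mean, among 13916 genes of at least 1 CPM on average. Nearest to *Itgb2* were *Fcer1g* (0.17), the common signalling chain of Fc receptors, and *Myo1f* (0.19). *Itgal* lay nearest to *Laptm5* and *Csf2rb2* (0.18 each), and *Itgb7* to *Eif4e3* (0.18) and *Cd48* (0.20). *Vcam1* had *Fmnl1* (0.23) and *Ptpn22* (0.24) as nearest genes, and *Icam1* had *Ccdc88b* (0.25) and the guanylate-binding protein gene *Gbp9* (0.29). *Itgae* was nearest to *Scara3* (0.13) and *Trim5* (0.15), and *Selplg* to *Lag3* (0.26), an inhibitory receptor of T cells, and *Bin2* (0.27). *Madcam1* had no gene as near, with *Gem* at 0.41 and *Aff3* at 0.44. Among the members themselves *Itgb2* and *Itgal* were nearest (0.27), and *Madcam1* was the farthest from every other (0.82 to 1.11).

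The wider adhesion pathway moved less uniformly, a contrast with the members that was not tested. Of 63 other genes for integrins, junctional molecules, selectin ligands and the enzymes that make them, integrin activation and gut homing, 58 were tested in WT CAC against naive WT, with 10 called higher and 5 lower and a median log2 fold change of 0.20. Of all genes tested there, 8.04% were called higher and 6.92% lower. Between *Cldn2*TG CAC and WT CAC 58 were tested, with 2 called higher and 12 lower and a median of -0.59 (all genes: 2.19% higher, 7.35% lower). Between *Cldn2*TG CAC and naive WT 57 were tested, with 1 called higher and 9 lower and a median of -0.20 (all genes: 3.92% higher, 6.07% lower). Without naive WT mouse 1, 5 were called in WT CAC (3.96% of all genes) and 8 in *Cldn2*TG CAC (6.25% of all genes) against naive WT.

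Among other leukocyte integrin subunits, a list that also holds chains of other cells such as *Itga6* and *Itgav*, 3 of 10 tested rose in WT CAC and 1 fell, against naive WT. *Itga6* averaged 209.2 ± 27.1 CPM in naive WT, where *Itgal* averaged 1.80 ± 0.669 CPM. Which cells carried the changes in this list was not tested. *Itgax*, the CD11c chain of dendritic cells and macrophages, rose from 2.6 ± 0.889 to 9.27 ± 4.44 CPM (log2 fold change 1.86, adjusted p = 0.0294 by edgeR) and was at 2.0 ± 1.01 CPM in *Cldn2*TG CAC (-2.27, adjusted p = 0.0253 by edgeR; SD, n = 3 each). *Itgav* rose from 32.5 ± 5.25 to 75.8 ± 21.03 CPM and was at 37.0 ± 1.91 CPM in *Cldn2*TG CAC, called in both comparisons. *Itga6* rose as well, by 0.81 on the log2 scale, and *Itga1*, a collagen receptor chain, fell by 0.66 on the log2 scale. Against WT CAC, 4 of the 10 were called lower in *Cldn2*TG CAC and none higher. Against naive WT 3 were called lower, for which the log2 level fell by 1.45 (*Itgb3*), fell by 1.31 (*Itga1*) and fell by 1.20 (*Itga9*).

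Of 11 integrin subunits found mostly outside leukocytes, 3 rose in WT CAC. *Itgb8*, whose integrin with alpha V activates TGF-beta, rose from 2.51 ± 0.389 to 23.0 ± 12.7 CPM (log2 fold change 3.22, adjusted p = 0.00915 by edgeR), and was at 2.13 ± 1.49 CPM in *Cldn2*TG CAC (-3.45, adjusted p = 0.0190 by edgeR). Its change exceeded that of every tested member in both comparisons. *Itgb6*, an epithelial partner of alpha V, rose by 1.07 on the log2 scale and *Itgb4*, of hemidesmosomes, by 0.53. *Itgb6* was also the 1 gene of the pathway called higher in *Cldn2*TG CAC against naive WT (0.63, adjusted p = 0.0198 by edgeR).

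Selectin ligand proteins and enzymes did not move together. *Spn*, the leukocyte mucin CD43, rose from 1.02 ± 0.473 to 3.88 ± 1.88 CPM in WT CAC and was at 1.12 ± 0.405 CPM in *Cldn2*TG CAC, called in both comparisons. *Cd44* was called lower in *Cldn2*TG CAC than in WT CAC, at 20.2 ± 0.770 against 54.1 ± 16.9 CPM. Of 8 enzymes tested, *Fut4* and *St3gal4*, which add fucose and sialic acid, fell in WT CAC by 0.56 and 0.65 on the log2 scale, and *St3gal6* was 0.67 higher in *Cldn2*TG CAC than in WT CAC (adjusted p = 0.0115 by edgeR). In integrin activation, 3 of 9 rose in WT CAC: *Rassf5* (1.67), an effector of Rap1, *Fermt3* (1.24), the kindlin of blood cells, and *Rap1b* (0.53). *Rassf5* (-2.03) and the adaptor *Skap1* (-2.12) were called lower in *Cldn2*TG CAC than in WT CAC. *Skap1* averaged 0.303 ± 0.194 CPM in *Cldn2*TG CAC, had fewer than 10 counts in at least 1 mouse, and passed the filter through WT CAC, where it was at 1.27 ± 0.566 CPM.

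Other vascular and junctional adhesion molecules, a list that also holds genes of epithelial junctions such as *Cdh1* and *F11r*, were not called higher in WT CAC. Of 8 tested, 1 was called lower there, *Cd99l2*, at 20.4 ± 1.88 against 32.1 ± 1.94 CPM. In *Cldn2*TG CAC, *Jam2* and *Esam* were called lower than in WT CAC (-1.53 and -1.31), and *Jam2*, *Jam3* and *Esam* lower than in naive WT (-1.40, -1.23 and -0.98). Endothelial markers were lower in the same mice, as given above. Among gut homing genes, *Ccl28*, an epithelial chemokine for plasma cells and other lymphocytes, went against the members. It fell from 251.9 ± 29.0 to 136.8 ± 21.8 CPM in WT CAC (log2 fold change -0.86, adjusted p = 0.0145 by edgeR) and was at 258.9 ± 27.4 CPM in *Cldn2*TG CAC (0.90, adjusted p = 0.0118 by edgeR). *S1pr1*, the receptor for lymphocyte egress that endothelium also makes, was lower in *Cldn2*TG CAC than in WT CAC (-1.80) and than in naive WT (-1.38). *Ackr1*, the chemokine receptor of venules, was lower in *Cldn2*TG CAC than in naive WT, at 0.490 ± 0.233 against 1.37 ± 0.139 CPM (-1.49, adjusted p = 0.0350 by edgeR), and it too passed the filter through its higher group.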

How the data were processed

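Colon RNA of 9 mice was sequenced in 2 lanes each. The authors mapped the reads with TopHat2 by the paper's methods (the submitters' processing notes name HISAT2) on GRCm38 and counted them with featureCounts; versions and strand setting are not given in the sources used here. The deposited values are whole-number counts for 47729 genes. Lanes were summed to 1 library per mouse, and 47224 identifiers had a symbol. The untreated group was taken from the treatment label, since the protocol text under the controls also names AOM-DSS.

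Each comparison was fitted on its 6 mice with edgeR 4.0.16 in R 4.3.3 (TMM, filterByExpr with minimum count 10 and total 15, robust two-sided quasi-likelihood test), and p-values were adjusted by Benjamini-Hochberg over all genes tested and called under 0.05. The biological coefficient of variation was 0.218, 0.217 and 0.149 for WT CAC against naive WT, *Cldn2*TG CAC against WT CAC and *Cldn2*TG CAC against naive WT. CPM are TMM-scaled over the 9 mice; depth was 14142711 to 22262546 counts. Alternatives were DESeq2 1.42.0, library size only, upper quartile, no filter, a minimum of 10 counts in each of the 6 mice, 1 fit of all 9 mice, each lane, voom of limma 3.58.1 with quality weights by group, a log2 fold change of at least 1 and each mouse left out. On simulated data with 200 changed genes, edgeR recovered 169, 174 and 188 with 25, 19 and 8 false calls in these 3 comparisons.

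The members, picked by name, and the lists were chosen with earlier results of these data known. Named are all members, at most 3 called genes per pathway list and direction by lowest p, with *Itga4*, *Cdh1*, *F11r* and *Ly6g* added after its values were seen, and the 2 nearest genes of each member of at least 1 CPM. *Cd99* of the pathway lists was not matched. *Vcam1* shares 61 exon bases with *Gm43109* (0 counts) and *Selp* 624 with *Gm16587* and *Gm16548* (at most 1 count).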

Additional observations from a re-analysis of the deposited data

How the results depend on the processing

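Member calls were within 1.5 times of those reported, 7, 7 and 0 for WT CAC against naive WT, *Cldn2*TG CAC against WT CAC and *Cldn2*TG CAC against naive WT, under all 9 other settings and the fold threshold. With 1 mouse left out they ranged from 0 to 8, 1 to 8 and 0 to 1, where fewer mice were in the fit.

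Of the other adhesion genes, 15, 14 and 10 were called in the same order. A log2 fold change of at least 1 left 7 in the first comparison, and all 9 mice in 1 fit gave 22 in the second and 5 in the third. DESeq2 gave 23 in the second, and no filter on low counts gave 17 in the third; the cause was not tested. With 1 mouse left out these counts ranged from 0 to 22, 0 to 28 and 5 to 10. Members not overlapping relative to markers were 2, 2 and 1 of 8, and without 1 mouse 2 to 4, 2 to 4 and 1 to 3. In the third comparison, *Ptprc* or *Pecam1* as the only marker gave 2, and lane 1 alone gave 0. The 2 of the second comparison were 1 lower (*Vcam1*) and 1 higher (*Itgae*). In plain levels, 14.2% to 20.3% of all genes did not overlap in a given direction. No such share was computed relative to markers or with fewer mice, so these counts are not read as a result.

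Fold changes reversed sign, over all genes named and alternatives run, only in *Cldn2*TG CAC against naive WT and only for genes that were not called there. The log2 fold change of *Icam1* was -0.01 in lane 1 alone, and -0.09 to 0.38 with 1 mouse left out. That of *Itgb7* was 0.03 in lane 1 alone and 0.07 with voom, and -0.27 to 0.41 with 1 mouse left out. With 1 mouse left out *Itgal* ran from -0.50 to 0.03 and *Selplg* from -0.61 to 0.00.

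Library size alone moved the median of all genes by -0.11 on the log2 scale in *Cldn2*TG CAC against naive WT, and no member changed sign with the scaling. No paired analysis was possible because the groups share no replicate numbers. Depth limits *Sele* and *Selp*, at no more than 5 and 47 counts in a mouse.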
